A study of Homo sapiens with 2 samples.

Results

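The 510 binding regions (peaks) of oestrogen receptor α (ERα) on human chromosomes 21 and 22 in T47D breast cancer cells are described here. They are the rows of the deposited peak list whose sequence name is chr21 (260 peaks) or chr22 (250 peaks), out of 12688 rows in all. T47D is an established ERα-positive line. Cells were held for 48 h in medium depleted of steroids and then received 10 nM 17β-estradiol for 45 min. ERα-bound DNA was recovered with the H-20 antibody, and sonicated DNA of estradiol-treated cells that met no antibody was the input. There was 1 library of each kind, from treated cells only, and the authors called 1 set of peaks from that pair, so no value below has a replicate error and none measures a response to estradiol.

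ERα is a nuclear receptor that estradiol turns into an active transcription factor. It binds oestrogen response elements in DNA and recruits coactivators, and most of its sites in breast cancer cells lie in enhancers away from gene starts, often several of them around 1 regulated gene. Chromosomes 21 and 22 are the smallest acrocentric autosomes: their short arms are made of repeats and ribosomal DNA, so nearly all unique sequence lies in the long arms 21q and 22q. An early tiling-array map of ERα binding, made in the breast cancer line MCF-7, covered just these chromosomes. They carry well known oestrogen-regulated genes: NRIP1, a receptor corepressor, at the start of 21q21; the trefoil factor genes TFF3, TFF2 and TFF1, which encode secreted mucosal peptides and neighbour each other on 21q22; and XBP1, a transcription factor of the unfolded protein response, on 22q.

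Band 21q21 is known as gene-poor. In the gene order of RefSeq on GRCh38.p14, 25 protein-coding genes ran from NRIP1 to GRIK1, which mark the ends of that band, and 189 lay beyond GRIK1 up to the end of the chromosome, 49 of them keratin-associated protein genes. Chromosome 22 held 451 protein-coding genes in that table and chromosome 21 held 239. The peak list follows hg19, no annotation of that build was used here, and peaks were not assigned to genes. The stretches compared were, by band, 21q21 as 16 to 31 Mb of chromosome 21, 22q as chromosome 22 from 17 Mb, and 21q22 as chromosome 21 from 31 Mb. Of the 510 peaks, 70 lay in 21q21, 249 in 22q and 172 in 21q22. The other 19 were 18 peaks on chromosome 21 before 16 Mb and 1 on chromosome 22 before 17 Mb.

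Band 21q21 had less than 0.5 times as many ERα peaks per Mb as its neighbour 21q22. Its 70 peaks in 15 Mb came to 4.67 per Mb (exact Poisson 95% interval 3.64 to 5.90), against 10.0 per Mb (8.60 to 11.7) for the 172 peaks of 21q22. The ratio was 0.465, with an exact conditional 95% interval from 0.347 to 0.617. Band 21q22 was thus the densest of the 3 stretches, and 22q lay between. The 249 peaks of 22q came to 7.26 per Mb (6.38 to 8.22), 0.723 times the density of 21q22 (0.593 to 0.883). All such intervals reflect counting error alone and take peaks to be independent of each other, although clustered ones are not. After peaks with edges within 10 kb were merged into 1 region each, 21q21 held 46 regions and 21q22 held 117, and the ratio was 0.449 (0.312 to 0.637). The ratio of 22q to 21q22 was then 0.696 (0.545 to 0.890).

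Sparse beside 21q22, band 21q21 was not separated from the rest of the genome by counting error. Chromosomes 1 to 20 and X averaged 4.13 peaks per Mb, from 12137 peaks. Relative to this mean, 21q21 stood at 1.13 (0.880 to 1.43), an interval that includes 1. The ratio to the same mean was 1.76 (1.54 to 1.99) for 22q and 2.43 (2.08 to 2.82) for 21q22. Over their whole lengths, short arms included, chromosomes 21 and 22 had 5.13 peaks per Mb (4.69 to 5.59), or 1.24 times the mean of the rest (1.13 to 1.36). They held 4.02% of the list in 3.27% of the sequence of chromosomes 1 to 22 and X. Over whole lengths they were less dense than the autosomes nearest to them in length. The ratio was 0.770 (0.674 to 0.880) to chromosome 19 and 0.787 (0.689 to 0.898) to chromosome 20. Chromosomes 19 and 20 had 6.66 and 6.52 peaks per Mb. These values lay above 21q21 (4.67) but below 22q (7.26) and 21q22 (10.0), stretches that leave out the short arms. Between chromosomes 21 and 22 themselves the ratio of 21 to 22 was 1.11 (0.928 to 1.32), so counting error does not separate these 2. No correction for copy number was added to the authors' use of input DNA, and the part of copy number in these densities was not tested.

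**Figure D1:**
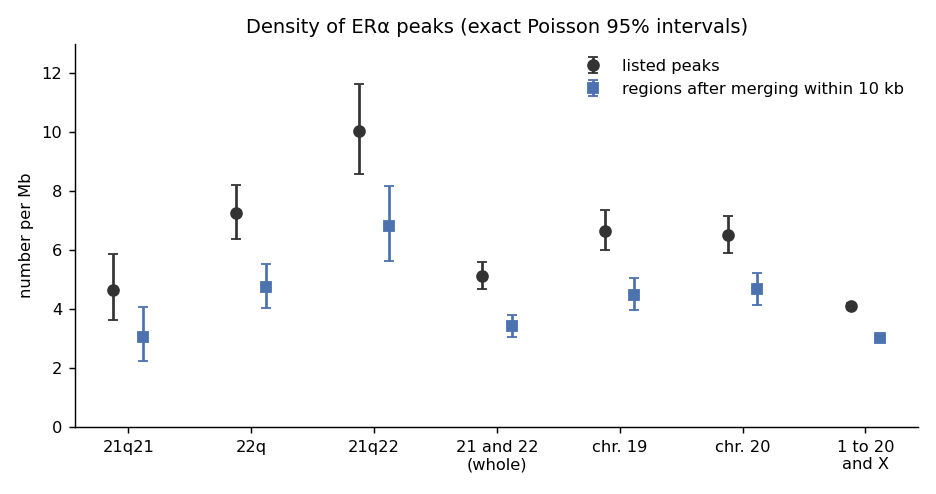
Points give ERα peaks per Mb (circles) and regions per Mb after merging within 10 kb (squares) for 21q21, 22q, 21q22, both whole chromosomes, chromosomes 19 and 20, and chromosomes 1 to 20 and X together; bars are exact Poisson 95% intervals. Band 21q21, at 4.67 per Mb, lies near the 4.13 per Mb of chromosomes 1 to 20 and X, and 21q22, at 10.0 per Mb, lies highest.

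The first window of 21q21 stood above the rest of the band. Its first 1 Mb window, from 16000001 to 17000000, held 22 peaks, and its last, from 30000001 to 31000000, held 10, so that both edges together carried 32 of the 70. The 13 Mb between them held 38 peaks, or 2.92 per Mb (2.07 to 4.01). That is 0.707 times the mean of chromosomes 1 to 20 and X (0.5003 to 0.971). Of those 13 windows, 4 were empty and 4 more held a single peak, while the fullest, from 22000001 to 23000000, held 11. The split at 17 and 30 Mb was chosen after the counts were seen.

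Peaks inside the gene-poor stretch lay in islands that spanned a small part of its length. When peaks with edges within 500 kb were joined, a distance chosen after the counts were seen, 21q21 fell into 10 islands, and 4 of these, each with 5 or more peaks, contained 60 of the 70 peaks (85.7%). The first ran from 16082147 to 16959787 with 22 peaks and the second from 21879580 to 23344023 with 20. The third ran from 27307057 to 27763890 with 9, and the last, from 30749310 to 30896321, also had 9. In total the 10 islands spanned 3.03 of the 15 Mb. Band 21q22 gave 5 islands over 13.2 Mb by the same joining, the largest with 112 peaks. The 18 islands of 22q covered 18.3 Mb, the largest with 52 peaks. Islands of 5 or more peaks held a larger share there than in 21q21, 97.7% in 21q22 and 93.6% in 22q. Only 21q21 had islands of a single peak, 4 of its 10. Thus 21q22 was nearly continuous at this scale, while 21q21 was mostly bare sequence between islands.

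Long stretches without a peak showed the same contrast between 21q21 and 21q22, but not between 21q21 and the rest of the genome. Distances of over 1 Mb were 5.80% of those between neighbouring centres in 21q21, 1.61% in 22q and 0.585% in 21q22. On chromosomes 1 to 20 and X they were 5.29%, near the share of 21q21. Band 21q21 had 4 intervals of over 1 Mb between neighbouring peaks, which added up to 8.23 Mb. The longest ran from 24389190 to 27307056 (2.92 Mb) and the next from 27763891 to 30230090 (2.47 Mb). In 21q22 there was 1 such interval, of 1.41 Mb, from 31456387 to 32864795. On 22q there were 4, totalling 6.61 Mb, and the longest, 3.16 Mb from 46971355 to 50127839, lay near the chromosome end. Unsequenced and repetitive bases were not marked, so bare stretches are not shown to lack binding.

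**Figure D2:**
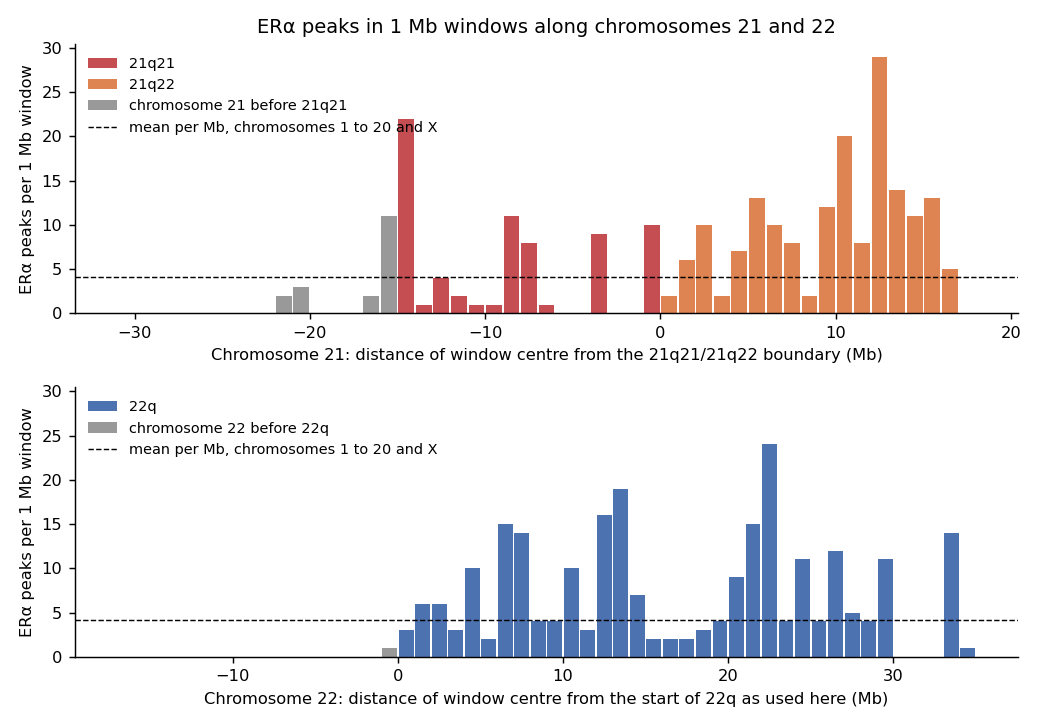
Bars give the number of ERα peaks in each 1 Mb window, along chromosome 21 by distance from the boundary of 21q21 and 21q22 (top) and along chromosome 22 by distance from the start of 22q (bottom), both in Mb. The dashed line marks 4.13 per Mb, the average of chromosomes 1 to 20 and X. The 22 peaks of the first window of 21q21 stand beside windows of 0 to 11 in the rest of that band, and the tallest bar is the window of 29 peaks in 21q22.

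Windows rich in peaks were more frequent on these chromosomes than elsewhere. Of 101 windows of 1 Mb, 25 (24.8%) held 10 or more peaks, against 377 of 2952 (12.8%) on chromosomes 1 to 20 and X and 13.2% of all windows, a difference of 11.98 percentage points between these chromosomes and the rest (95% interval 4.49 to 21.3). Empty windows were also more frequent, 36 of 101 (35.6%) against 702 of 2952 (23.8%), with 24.2% over all windows, a difference of 11.9 points (3.07 to 21.7). Of the 36, 28 lay before 16 Mb on chromosome 21 or before 17 Mb on chromosome 22, where the short arms and centromeres are. Within the long arms, 10 or more peaks were found in 3 of 15 windows of 21q21, 12 of 35 windows of 22q and 9 of 18 windows of 21q22. Empty windows there numbered 4 in 21q21 (26.7%), 3 in 22q (8.57%) and 1 in 21q22 (5.56%). The 1 in 21q22 was the last window, from 48000001 to 48129895, which is far shorter than 1 Mb. Last windows of chromosomes were counted as whole windows throughout. The shares of 22q and 21q22 were thus below the 23.8% of chromosomes 1 to 20 and X. Those chromosomes were taken whole, centromeres included, whereas 22q and 21q22 as used here leave out short arms and centromeres. No window share was computed for chromosome 19 or chromosome 20 alone. These had 6.66 and 6.52 peaks per Mb, against 5.13 for chromosomes 21 and 22. The median window held 1 peak in 21q21, 4 in 22q and 9 in 21q22. Counts were uneven in each stretch: the variance between windows was 8.38 times the mean in 21q21, 5.07 times in 22q and 5.21 times in 21q22, and 6.24 times over chromosomes 1 to 20 and X.

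The densest window of chromosome 21 ran from 43000001 to 44000000, in 21q22, and held 29 peaks in 20 merged regions. The window of 22 peaks at the start of 21q21 came second, ahead of the window from 41000001 to 42000000 with 20 peaks. Windows from 44000001 and from 36000001 followed with 14 and 13. These 5 windows held 37.7% of the 260 peaks of the chromosome. The last part of the band was the richer one: from 40 Mb to the end 21q22 had 112 peaks, or 13.8 per Mb (11.3 to 16.6), and from 31 to 40 Mb it had 60, or 6.67 per Mb (5.09 to 8.58). That split was chosen after the counts were seen.

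On chromosome 22 the densest window ran from 39000001 to 40000000 and held 24 peaks, of which 19 had another peak centre within 10 kb. Merging within 10 kb left 11 regions there, fewer than the 14 left in the window from 30000001, which listed 19 peaks. Windows from 29000001, 23000001 and 38000001 followed with 16, 15 and 15 peaks. The 5 windows held 35.6% of the 250 peaks of the chromosome. The chromosome had 2 rich stretches with a poor one between them: 122 peaks from 17 to 32 Mb (8.13 per Mb), 13 from 32 to 37 Mb (2.60 per Mb) and 99 from 37 to 47 Mb (9.90 per Mb). From 47 Mb to the end there were 15 peaks, or 3.48 per Mb. That is 0.843 times the mean of chromosomes 1 to 20 and X (0.472 to 1.39), an interval that includes 1. This end was not evenly sparse: the windows from 47000001 to 50000000 were empty, and the window from 50000001 to 51000000 held 14 peaks. The stretch from 32 to 37 Mb stood at 0.629 times the mean of chromosomes 1 to 20 and X (0.335 to 1.08), an interval that includes 1, and these limits were chosen after the counts were seen.

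Strong peaks, those with a score of 3100 or more, numbered 14 among the 510 (2.75%, Wilson 95% interval 1.64 to 4.55%), against 255 of 12137 (2.10%) on chromosomes 1 to 20 and X and 2.13% over chromosomes 1 to 22 and X. The score is the authors' own and was used only to order peaks within the list. Exactly 3100 was given to 13 of the 14, a score that 235 peaks of the list share, so their order among themselves is not known. The nearest scores below were 3083.74 and 3047.88, both in 21q22. By stretch, 4 of 70 peaks were strong in 21q21, 5 of 249 in 22q and 4 of 172 in 21q22. The share in 21q21 was 3.39 percentage points above that in 21q22 (95% interval -1.54 to 11.6), so this difference is not separated from counting error. Against chromosomes 1 to 20 and X it was 3.61 points higher (0.133 to 11.7). In number, the gene-poor band held as many strong peaks as 21q22, 4 each.

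The highest-scoring peak of both chromosomes lay in 21q21, at chr21:30750712-30751620, with a score of 3137.85, a width of 909 bp and rank 27 in the whole list. A second strong peak of the same window lay at chr21:30881319-30882316 (998 bp). Another, at chr21:27760824-27761721 (898 bp), stood at the end of the island near 27 Mb, next to a peak scoring 1330.76 and one scoring 136.26, all within 3.07 kb. The fourth, at chr21:16582300-16583136 (837 bp), was in the dense first window. The fifth-ranked peak of 21q21, at chr21:16377481-16378192, scored 2203.91. Thus the 4 strong peaks of 21q21 lay in 3 of its 4 large islands, and the island from 21879580 had a top score of 864.19.

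In 21q22 the strong peaks were at chr21:36100354-36101465 (1112 bp), chr21:36106739-36107655 (917 bp), chr21:43796230-43797029 (800 bp) and chr21:47712227-47714829 (2603 bp). The first pair shared 1 cluster. The peak at 43796230 had companions 0.873 kb away (score 304.28) and 8.92 kb beyond that (score 883.13). The peak at 47712227 was the second widest member and the last peak of the chromosome, with its nearest neighbour 92.3 kb away.

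On 22q the strong peaks were at chr22:29209240-29210421 (1182 bp), chr22:29215190-29216356 (1167 bp), chr22:29912907-29914177 (1271 bp), chr22:41128590-41129281 (692 bp) and chr22:46887654-46888454 (801 bp). The first 3 lay within the same 1 Mb window, so 3 of the 5 strong peaks of 22q came from a single megabase. The remaining strong member, at chr21:15678407-15678914, lay before 21q21 and measured 508 bp, the narrowest of the 14. Of the 14, 11 had another peak centre within 5 kb, and the other 3 had none within 10 kb.

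Scores of the members were at most slightly higher than elsewhere. The list's median score was reached by 277 of 510 (54.3%, Wilson 95% interval 49.97 to 58.6%), against 6047 of 12137 (49.8%) on chromosomes 1 to 20 and X and 50% over chromosomes 1 to 22 and X. The members' interval includes that 50%, and the difference from chromosomes 1 to 20 and X was 4.49 percentage points (0.061 to 8.86). For strong peaks the difference was 0.644 points (-0.492 to 2.47). Chromosome 19 had 53.8% (48.9 to 58.7%) at or above the median and chromosome 20 had 48.7% (43.9 to 53.5%). By stretch the shares were 58.6% (46.9 to 69.4%) in 21q21, 53.4% (47.2 to 59.5%) in 22q and 53.5% (46.0 to 60.8%) in 21q22. Band 21q21 thus had the largest share, but its difference of 5.08 points from 21q22 (-8.70 to 18.2) is not separated from counting error. The median score was 167.56 in 21q21, 152.39 in 22q and 139.48 in 21q22, with overlapping intervals.

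Close neighbours were more frequent among the members than on chromosomes 1 to 20 and X, while the intervals overlapped on chromosomes of like size. Another peak centre was found within 10 kb for 253 of the 510 (49.6%, Wilson 95% interval 45.3 to 53.9%), against 4981 of 12137 (41.0%) on chromosomes 1 to 20 and X and 41.4% over chromosomes 1 to 22 and X. The difference was 8.57 percentage points (4.16 to 12.98). The share was 48.7% (43.8 to 53.7%) on chromosome 19 and 46.2% (41.5 to 51.1%) on chromosome 20, with intervals that overlap that of the members. A higher density by itself brings peaks closer, and its part in this difference was not tested. By stretch it was 50% in 21q21 (35 of 70), 52.2% in 22q (130 of 249) and 47.7% in 21q22 (82 of 172). Thus 21q21, at 0.465 times the density of 21q22, had 2.33 points more peaks with a close neighbour (-11.3 to 15.9), a difference within counting error. Altogether 46 differences of shares and 25 ratios of densities were computed, and their intervals are not adjusted for that number.

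Of the 3 stretches, 21q21 had the mean distance between neighbours that lay furthest above its median. Neighbouring centres lay a median of 24.8 kb apart in 21q21 (quartiles 3.72 and 72.4 kb), 32.1 kb in 22q (6.34 and 157 kb) and 29.6 kb in 21q22 (5.61 and 119 kb). The median was 55.2 kb over chromosomes 1 to 20 and X. The means were 215 kb in 21q21, 135 kb in 22q and 96.6 kb in 21q22. Of these 3, 21q21 thus had the lowest median and the highest mean, with short steps inside islands and long ones between them. The 95% intervals of the 3 medians overlapped. A high mean was not particular to 21q21: it was 237 kb over chromosomes 1 to 20 and X. Distances under 1 kb made up 6 of 69 in 21q21 (8.70%), 17 of 248 in 22q (6.85%) and 2 of 171 in 21q22 (1.17%), against 483 of 12116 (3.99%) on chromosomes 1 to 20 and X. Relative to 21q22 the difference was 7.53 points for 21q21 (1.996 to 16.6) and 5.69 points for 22q (1.76 to 9.63). Relative to chromosomes 1 to 20 and X it was 2.87 points for 22q (0.311 to 6.73) and -2.82 points for 21q22 (-3.74 to 0.196). This distance was chosen after the values were seen. The caller's rule for joining summits was not given in the sources used here, so pairs this close may or may not be separate sites.

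**Figure D3:**
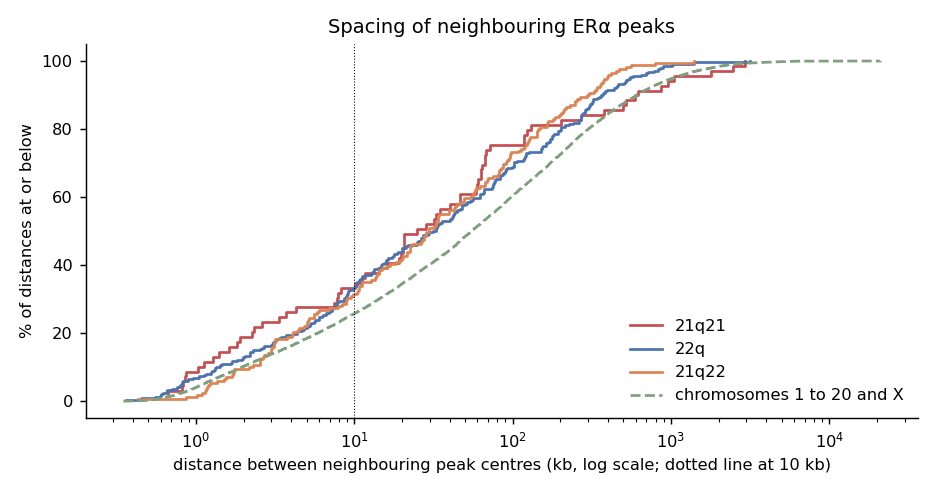
Lines give the percentage of distances between neighbouring ERα peak centres at or below each distance (kb, log scale) in 21q21 (69 distances), 22q (248), 21q22 (171) and chromosomes 1 to 20 and X (12116, dashed). At 10 kb the line stands at 33.3% for 21q21, 33.5% for 22q and 31.6% for 21q22, and the dashed line at 25.7%.

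Merging within 10 kb turned the 510 members into 341 regions, of which 249 were single peaks, 92 held 2 or more and 8 held 5 or more. These 8 clusters contained 54 peaks, or 10.6% of the members, against 7.06% on chromosomes 1 to 20 and X. No interval is given for this difference, and the part of the higher density in it was not tested. Of the 8, 2 were in 21q21, 4 on 22q and 2 in 21q22. The largest was in 21q22, from 41682018 to 41712791, with 10 peaks in 30.8 kb. Its scores ran from 115.57 to 2142.51, and 9 of the 10 were at or above the list's median. This was a run of middling to high peaks without a strong one. Its best, at chr21:41711977-41712791, closed the run, and the next best, at chr21:41696195-41697151, scored 1618.92.

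The cluster of 8 peaks on 22q from 29200639 to 29222757 had the highest median score of the 8 clusters, 876.81. It held the 2 strong peaks named above and further peaks scoring 2688.74, 1099.52, 654.1, 240.74, 137.76 and 56.13, in 22.1 kb. High and weak peaks thus stood side by side. The weakest, 380 bp wide, was at the far edge. The cluster of 7 in 21q22 from 36100354 to 36116577 held 2 peaks at 3100, 1 at 2477.34 and 4 between 51.74 and 155.02 in 16.2 kb, with none of intermediate score and a median of 155.02. A second cluster of 8 on 22q, from 50323732 to 50347248, was weaker: its top score was 1499.22, its median was 152.34 and 4 of the 8 were at or above the list's median.

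The clusters of 21q21 each held 5 peaks around 1 strong peak. The one from 16564443 to 16584362 scored 54.29, 775.65, 233.63, 3100 and 532.84 along the chromosome. The one from 30749310 to 30769167 scored 65.2, 3137.85, 134.28, 1297.95 and 123.09. The remaining 2 clusters, on 22q from 24585649 to 24608577 (6 peaks) and from 39679460 to 39697515 (5 peaks), had top scores of 509.88 and 1308.9. Another group on 22q, from 39865912 to 39867978, was unlike all of these. Its 4 peaks, 319 to 450 bp wide, had centres 0.361 to 0.757 kb apart and scored 55.79 to 163.47. All 4 fitted within 2.07 kb, a span shorter than the widest single member. It was picked out after its values were seen.

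Members with a close neighbour scored higher than those without. The median score was 199.6 (95% interval 163.52 to 256.61) for the 253 members with another centre within 10 kb, against 115.65 (95.71 to 140.45) for the other 257. Of members with a neighbour 62.5% (95% interval 56.3 to 68.2%) scored at or above the list's median, against 46.3% (40.3 to 52.4%) of those without, and 11 of the 14 strong peaks had a neighbour. On chromosomes 1 to 20 and X the shares were 58.9% with a neighbour and 43.5% without.

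Peaks of chromosomes 21 and 22 were at most slightly narrower than those elsewhere, and 22q had the lowest median width. The median width was 484.5 bp over the 510 members (95% interval of the median 471 to 502 bp), against 506 bp (502 to 509 bp) on chromosomes 1 to 20 and X, so the intervals just meet. By stretch it was 491 bp (460 to 542) in 21q21, 468 bp (436 to 496) in 22q and 493 bp (474 to 532) in 21q22. The interval of 22q alone lay below that of chromosomes 1 to 20 and X. Chromosome 19 had a median of 482.5 bp and chromosome 20 one of 570 bp (548 to 596), so such differences between chromosomes were not particular to these members. Together the members covered 0.282% of both chromosomes, and 0.253% of 21q21, 0.379% of 22q and 0.564% of 21q22.

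Wider peaks scored higher, as in the rest of the list. Spearman's rho between width and score was 0.727 across the 510 members and 0.626 across the 12137 peaks of chromosomes 1 to 20 and X. This is a description across peaks, not replicates, and both quantities come from the same reads. Among the 25% of the list with the lowest scores, the median width was 381 bp in 21q21, 362 bp (354 to 376) in 22q, 395.5 bp in 21q22 and 401 bp (397 to 406) on chromosomes 1 to 20 and X. Among the next 25% it was 411 bp (387 to 434) in 22q and 456 bp (452 to 460) on chromosomes 1 to 20 and X, and among the 25% after those 484 bp (456 to 514) in 22q and 532.5 bp (527 to 538) on chromosomes 1 to 20 and X. Among the 25% with the highest scores it was 712 bp in 21q21, 665 bp (636 to 694) in 22q, 722 bp in 21q22 and 689 bp (682 to 700) on chromosomes 1 to 20 and X. At matched score, therefore, 22q peaks were narrower with separate intervals in 3 of the 4 score groups, and among the highest scores the intervals overlapped.

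**Figure D4:**
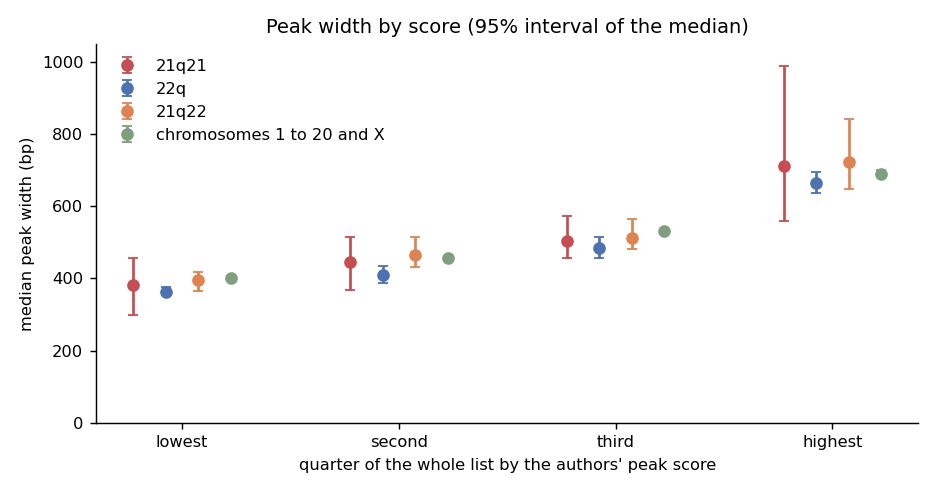
Points give the median width in bp of ERα peaks in each 25% of the whole list by score, for 21q21, 22q, 21q22 and chromosomes 1 to 20 and X; bars are 95% intervals of the median. Medians run from 362 bp on 22q among the lowest scores to 722 bp in 21q22 among the highest.

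Of the 18 peaks of chromosome 21 before 16 Mb, 3 were wide but low-scoring. They were among the 8 widest members and lay within 232 kb, at chr21:9937580-9939346 (1767 bp), chr21:10084880-10087945 (3066 bp) and chr21:10168315-10169997 (1683 bp). Yet their scores were only 65.93, 92.17 and 69.36. Across chromosomes 1 to 22 and X, 29 of the 5196 peaks that scored under 100 were 1500 bp or wider, and these were the 3 among the members. Both limits were set after the values were seen. The 3 lie beside the centromere, in a part of the chromosome known for repeats shared between acrocentric chromosomes. The treatment of reads with several matching places was not given in the sources used here, and their part in these peaks was not tested. Nearer to 21q21, 4 peaks from 15056077 to 15062066 formed a compact group in 5.99 kb with a top score of 2096.53.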

How the data were processed

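The authors deposited 1 BED list of peaks for the ERα library over the input library. Each row holds a start, an end, a name and a score, and the deposited score has no stated scale. Peak names carry the MACS prefix, per the file, and hg19, HOMER, Bowtie 0.12.9 and CASAVA 1.8 appear, without roles, in the submitters' processing notes. Caller version, threshold and the handling of duplicate or multiply mapping reads were not given in the sources used here. Read depth is unknown, so no limit that needs it is given.

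Starts are counted from 0 in the file, and 1 was added for printing. hg19 lengths came from GenomeInfoDb 1.38.1. The last peak passed the hg19 end on 0 chromosomes. Each peak was placed by its centre. Densities carry exact Poisson intervals, ratios exact conditional (Clopper-Pearson) intervals, shares Wilson intervals, their differences Newcombe intervals and medians order-statistic intervals, all at 95% and for counting error only. No test between samples and no p-value was possible with a single library of each kind. The intervals of ratios and of medians were tested on simulated data, and the other intervals were not. Simulated counts and values were independent of each other, so this says nothing of the intervals where peaks cluster.

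Named peaks are the 5 highest-scoring ones of each stretch and all strong peaks, named windows the 5 fullest of each chromosome and named clusters those of 5 or more peaks. Other items were picked after their values were seen. The members, the stretches and these rules were chosen with earlier results of these data known. No hg19 sequence or annotation was used here, so no peak sequence is printed and the planned distances to gene starts were not computed. RefSeq genes of GRCh38.p14 gave names and gene order only. Alternatives were score thresholds, merging, other limits, distances and window sizes. The tools were SciPy 1.17.1, pandas 2.3.3, NumPy 2.4.6, matplotlib 3.10.9 and Python 3.11.15.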

Additional observations from a re-analysis of the deposited data

How the results depend on the processing

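The alternatives at 17 to 30 Mb, for the 3 stretches alone, without chromosome 21 before 16 Mb and without the densest windows were chosen after seeing the data. Of 58 alternatives, 31 stayed within the main interval (for window counts, within 1.5 times), 27 moved and 0 reversed. A reversal was defined for the density ratios only, so all other alternatives could only stay or move. Shares at other distances or score thresholds are different quantities from the main share, so their moves say little about its stability. The ratio of 21q21 to 21q22 went to 0.725 without peak-free stretches of over 2 Mb, which removes the bare sequence itself, to 0.341 from 17 Mb and to 0.291 at 17 to 30 Mb. It stayed below 1 with its interval under all 10 alternatives. The ratio of 22q to 21q22 was 0.866 with an interval that includes 1 (0.592 to 1.28) for the 25% of peaks with the highest scores. The ratio of both chromosomes to the rest was 1.44 for those 25%, 1.13 after merging within 10 kb, 1.53 without peak-free stretches and 1.79 for the 3 stretches alone. The share with a neighbour was 36.9% within 5 kb, 62.9% within 20 kb, 78.4% within 50 kb, 45.1% for peaks at or above the median score and 44.2% after merging within 500 bp, above the rest of the genome each time (31.3, 52.1, 67.6, 35.5 and 35.3%). For peaks at or above the median score the median width was 579 bp, and 558 bp in 21q21, 588 bp in 22q and 585 bp in 21q22, against 600 bp in the rest. The share above the upper quartile was 28.8%, and 27.1% in 21q21, 31.3% in 22q and 26.2% in 21q22, and at 3100 it was 2.75%, 5.71%, 2.01% and 2.33% in the same order. The fullest 0.5 Mb window of chromosome 21 held 18 peaks. On chromosome 22 the fullest 2 Mb window held 39, and after merging within 10 kb the fullest 1 Mb window held 14 and was another one, from 30000001. No paired analysis was possible because the ERα and input libraries gave a single joint peak list. Distances to gene starts, with their alternative, were not run. The unknown depth limits which weak sites entered the list.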
